A study of Mus musculus with 12 samples.

Results

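The 9 naive, homing and activation marker genes were measured in CD4 T cells in which the cap methyltransferase gene *Rnmt* was deleted. They are the homing and egress receptors *Ccr7* and *S1pr1*, the transcription factors *Klf2*, *Foxo1*, *Tcf7* and *Lef1*, the naive marker *Dapl1* and the activation markers *Cd44* and *Cd69*. They were found by gene symbol, 9 of the 49585 genes in the count files and of the 10126 genes in the deposited table, and all 9 passed the filter on low counts in both kinds of library. They were chosen with the total RNA, RPF and TE results of these libraries already known, so their differences between genotypes are given as a description.

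Total cytoplasmic RNA and RPFs (ribosome-protected fragments, the mRNA covered by ribosomes) were sequenced from the CD4 T cells of 3 control and 3 *Rnmt* cKO female mice, giving 12 libraries. Controls were *Rnmt* fl/fl CD4cre - and cKO mice were *Rnmt* fl/fl CD4cre +, on a C57B6/J background by the study's methods. Thus all mice carried the floxed *Rnmt* allele and the cKO mice the CD4-Cre transgene as well, which also acts in CD8 T cells because both lineages pass through a CD4-expressing stage. Cells were taken from lymph nodes with a kit for naive CD4 T cells, activated for 20 h on plates coated with anti-CD3 (5 ug/ml) and anti-CD28 (1 ug/ml), and treated with 0.1 mg/ml cycloheximide for 1 min before lysis. Kits of this kind deplete cells with high surface CD44, so *Cd44* bears on how the cells were chosen before activation. Gene counts summed to 15079703 to 22629563 reads in a total RNA library and to 4123271 to 10661356 reads in an RPF library. The labels number the libraries 1 to 3 within each genotype and kind, taken here as 3 mice each. Values below are normalized CPM (read counts relative to the library total, with TMM scaling within each kind of library), and log2 fold changes (log2FC) are given with their standard errors and are relative to the RNA sequenced in each library, not per cell.

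A naive T cell circulates through lymph nodes, which it enters by way of the chemokine receptor CCR7 and leaves by way of the sphingosine 1-phosphate receptor S1PR1. The transcription factor FOXO1 maintains this state and drives expression of KLF2, which in turn drives that of S1PR1, while TCF1 (encoded by *Tcf7*) and LEF1 maintain the naive and memory programs. After antigen receptor signalling, CD69 appears within hours and holds S1PR1 inside the cell, and CD44, an adhesion receptor for hyaluronan, rises and stays high on activated and memory cells.

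The genes with the largest differences in opposite directions were *Dapl1* and *Cd44*, and the sequences ahead of their start sites are shown because these genes carry the largest differences. Each is the RefSeq promoter of GRCm38.p6 from 250 bases before the start, 5′ to 3′ on the strand of the gene, chr2:59484403-59484652 (+) for *Dapl1* and chr2:102901666-102901915 (-) for *Cd44*. Capitals mark matches to 3 motifs searched on both strands, the FOXO core GTAAACA, the TCF/LEF core CTTTGA and the KLF core CACCC, none of which contains another.
Dapl1: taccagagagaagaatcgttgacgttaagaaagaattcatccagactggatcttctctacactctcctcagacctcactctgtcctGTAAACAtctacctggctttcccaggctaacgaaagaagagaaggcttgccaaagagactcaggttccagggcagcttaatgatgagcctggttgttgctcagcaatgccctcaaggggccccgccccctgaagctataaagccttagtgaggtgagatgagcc
Cd44: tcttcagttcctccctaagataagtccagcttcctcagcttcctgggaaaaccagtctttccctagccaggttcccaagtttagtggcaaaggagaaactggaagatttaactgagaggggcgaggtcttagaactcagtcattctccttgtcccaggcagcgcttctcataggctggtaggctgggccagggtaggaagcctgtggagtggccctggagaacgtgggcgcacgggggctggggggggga
The *Dapl1* sequence held 1 match, to the FOXO core, which began 164 bases before the start site, and the *Cd44* sequence held none. Over 32817 promoters of the same length, 3.16% held the FOXO core, 13.8% the TCF/LEF core and 52.0% the KLF core. A promoter entry was found for 6 of the 9 genes.

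On GRCm38 the homing and egress receptor genes lie at chr11:99144196-99155077 (*Ccr7*, -) and chr3:115710433-115715072 (*S1pr1*, -). The transcription factor genes lie at chr8:72319033-72321656 (*Klf2*, +), chr3:52268336-52353221 (*Foxo1*, +), chr11:52252371-52283014 (*Tcf7*, -) and chr3:131110471-131224356 (*Lef1*, +). *Dapl1* lies at chr2:59484653-59505020 (+), *Cd44* at chr2:102811141-102901665 (-) and *Cd69* at chr6:129267325-129275436 (-). Reads were counted over exons of the whole gene, UTRs included. Reads on the opposite strand came to at most 2.32% of those counted, in *Lef1* total RNA.

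The targeted gene and the cell type were checked first. *Rnmt* was at 94.1 to 95.5 CPM in control and 29.3 to 32.4 CPM in cKO total RNA, a log2FC of -1.62 ± 0.06 (SE, n = 3 and 3), and its log2FC in RPF was -3.24 ± 0.10. All 10 markers of CD4 T cells were expressed in every library, with *Cd4* at 316 to 350 CPM in control and 271 to 315 CPM in cKO total RNA. Of the 10, 3 fell, 1 rose and 6 did not pass in total RNA, where 28.0% of all genes tested fell and 26.3% rose, and 5 fell and none rose in RPF, where 15.7% and 14.1% did. With cKO mouse 3 alone 4 fell and 1 rose in total RNA, where 20.8% of all genes fell and 19.7% rose in that fit, and 3 fell in RPF, where 4.75% fell and 4.36% rose. The 10 summed to 3127 to 3307 CPM in control and 2513 to 2777 CPM in cKO total RNA, and to 5074 to 5517 CPM and 4000 to 4367 CPM in RPF, without overlap, and the part of this in the differences of the 9 genes was not tested. *Cd3g* fell in total RNA (log2FC -1.23 ± 0.11, adjusted p = 7.52e-05 by edgeR's quasi-likelihood test), as did *Lck* (-0.90 ± 0.06, adjusted p = 3.25e-05) and *Cd3d* (-0.74 ± 0.11, adjusted p = 0.000726), while *Cd2* rose (0.55 ± 0.10, adjusted p = 0.00208). *Cd8a* was at 3.50 to 24.2 CPM in total RNA. None of 5 NK cell markers and 1 of 9 myeloid markers passed the filter on low counts in total RNA.

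B cell markers differed between libraries. Of 7 markers, *Ighm* was the most abundant, at 272 to 287 CPM in control and 187 to 242 CPM in cKO total RNA, and it fell (log2FC -0.44 ± 0.10, adjusted p = 0.00620). The other 6 (*Cd79a*, *Cd79b*, *Ms4a1*, *Pax5*, *Cd22* and *Ebf1*) summed to 7.64, 5.08 and 27.7 CPM in control mice 1, 2 and 3 and to 73.0, 94.7 and 16.1 CPM in cKO mice 1, 2 and 3. Thus 2 of 3 cKO mice stood above every control and cKO mouse 3 stood below control mouse 3. In RPF the sums were 10.2, 7.69 and 30.5 CPM in the controls and 105, 120.5 and 18.0 CPM in cKO mice, in the same order. None of the 7 was at 0 in total RNA, while *Cd22* and *Ebf1* were at 0 in RPF of control mouse 2. *Ighm* in RPF was at 108 to 138 CPM in control and 66.2 to 179 CPM in cKO mice, with overlap. *Cd79b*, *Ms4a1* and *Cd22* rose in total RNA (log2FC 1.92 to 2.28, adjusted p = 0.0120 to 0.0467 by edgeR's quasi-likelihood test). The median was 2.22 over the 6 markers tested, *Ighm* among them. Of these 6, 3 rose, 1 to 5 with 1 mouse left out, where 26.3% of all genes rose. In RPF 4 of 7 rose, 0 to 7 with 1 mouse left out, where 14.1% did. With control sums as low as 5.08 CPM, markers near the filter of 1 CPM may have passed it only through the cKO libraries. Nothing is read from these counts or the median. When 1 mouse was left out, *Cd79b* passed in all 6 fits and *Ms4a1* and *Cd22* in 2 of 6 each. B cells express several of the genes described here, and kits of the kind used here are meant to deplete B cells. For the 9 genes and the gene lists, values in cKO mouse 3 alone, the cKO mouse with few B cell reads, are given as well, and the part of B cells in the differences was not tested. In bulk RNA, fewer cells of a type and less RNA per cell cannot be told apart.

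*Cd44* and *Cd69* were higher in cKO than in control libraries in both total RNA and RPF. *Cd44* was at 22.1, 27.9 and 28.5 CPM in control and at 83.8, 208 and 66.7 CPM in cKO total RNA (mice 1 to 3). The genotypes did not overlap, and cKO mouse 2 was far above the other two cKO mice. The log2FC of *Cd44* was 2.19 ± 0.40, and 1.54 without cKO mouse 2. In RPF, *Cd44* was at 56.3, 69.3 and 74.5 CPM in control and at 242, 406 and 195 CPM in cKO mice, with no overlap and a log2FC of 2.09 ± 0.25. In cKO mouse 3 alone against the 3 controls the log2FC of *Cd44* was 1.38 in total RNA and 1.55 in RPF. Across the 3 cKO mice *Cd44* had the same order as the summed B cell markers, and their part in its difference was not tested.

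**Figure D1:**
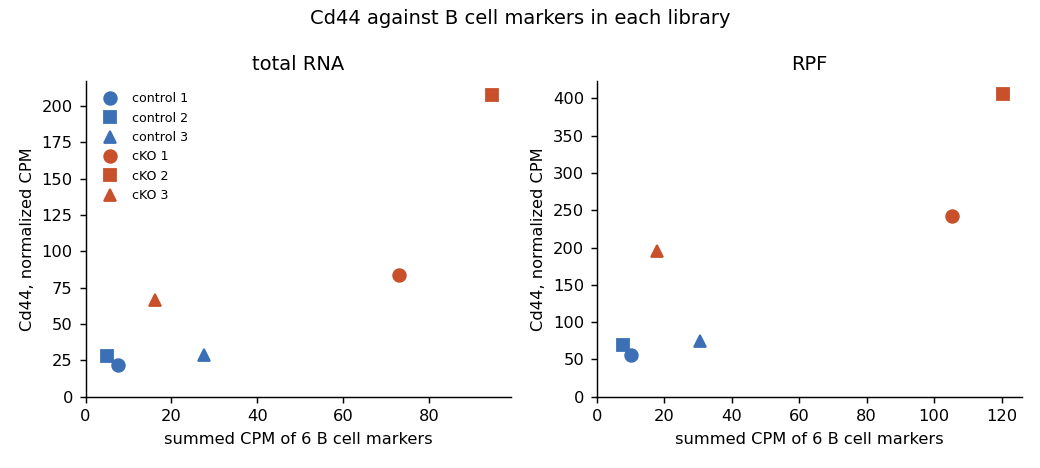
Normalized CPM of *Cd44* (y axis) against the summed CPM of 6 B cell markers without *Ighm* (x axis) in total RNA (left) and RPF (right), 1 point per library, blue for control and orange for cKO. The cKO 3 library lies at 16.1 CPM of B cell markers in total RNA, between control libraries, with *Cd44* at 66.7 CPM, above all 3 controls.

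*Cd69*, which encodes an early activation antigen, was at 185, 169 and 227 CPM in control and at 348, 343 and 356 CPM in cKO total RNA. The cKO libraries were close to each other and all above the controls, with a log2FC of 0.85 ± 0.10. In RPF, *Cd69* was at 119, 96.9 and 139 CPM in control and at 206, 187 and 200 CPM in cKO mice. The log2FC in RPF was 0.74 ± 0.12, and in cKO mouse 3 alone the log2FC of *Cd69* was 0.91 in total RNA and 0.76 in RPF.

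*Dapl1*, whose expression marks naive T cells, was lower in cKO than in control libraries by more than any other of the 9 genes. It was at 33.4, 32.0 and 35.9 CPM in control and at 3.39, 2.63 and 5.49 CPM in cKO total RNA. All cKO libraries were far below the controls, and the fewest reads behind any of these values were 50 in total RNA and 44 in RPF. The log2FC of *Dapl1* was -3.11 ± 0.22 in total RNA, a cKO level 0.116 times that of the controls. In RPF, *Dapl1* was at 94.8, 106 and 97.2 CPM in control and at 12.9, 8.30 and 10.8 CPM in cKO mice, with a log2FC of -3.23 ± 0.15. In cKO mouse 3 alone the log2FC of *Dapl1* was -2.59 in total RNA and -3.20 in RPF.

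The homing and egress receptors moved in opposite directions. *Ccr7* was at 882, 935 and 812 CPM in control and at 1288, 1360 and 1492 CPM in cKO total RNA, with no overlap and a log2FC of 0.65 ± 0.08. In RPF, *Ccr7* was at 1789, 1966 and 1745 CPM in control and at 1987, 2171 and 2333 CPM in cKO mice. The lowest cKO library stood just above the highest control there, and the log2FC of 0.24 ± 0.08 did not pass the threshold. The highest *Ccr7* level in both kinds of library was that of cKO mouse 3, whose log2FC alone was 0.80 in total RNA and 0.34 in RPF.

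*S1pr1* was at 35.5, 31.7 and 39.6 CPM in control and at 26.5, 24.9 and 32.2 CPM in cKO total RNA. Here cKO mouse 3 overlapped the lowest control, and the log2FC was -0.35 ± 0.12. In RPF, *S1pr1* was at 22.0, 18.2 and 23.2 CPM in control and at 16.3, 13.4 and 16.5 CPM in cKO mice, without overlap, with a log2FC of -0.47 ± 0.14. The fewest reads of *S1pr1* in an RPF library were 67. The difference fell short of the threshold in most fits that left out 1 mouse, and in cKO mouse 3 alone the log2FC of *S1pr1* was -0.12 in total RNA and -0.36 in RPF.

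Among the transcription factors, *Klf2* and *Lef1* were lower in cKO RPF and *Foxo1* was higher in both kinds of library, while *Tcf7* differed in sign between them. The RPF calls of *Foxo1* and *Lef1* were each lost in 4 of 6 fits that left out 1 mouse, and that of *Lef1* also with the exact test of edgeR. In cKO mouse 3 alone the RPF calls of *Klf2*, *Foxo1* and *Lef1* were lost. *Klf2* was at 23.7, 28.2 and 34.0 CPM in control and at 25.7, 23.3 and 25.8 CPM in cKO total RNA, which overlapped (log2FC -0.20 ± 0.13, not past the threshold). In RPF, *Klf2* was at 140, 161 and 168 CPM in control and at 113, 82.4 and 118 CPM in cKO mice, without overlap, and the log2FC was -0.59 ± 0.13. cKO mouse 2 was the lowest in both, and in cKO mouse 3 alone the log2FC of *Klf2* was -0.12 in total RNA and -0.40 in RPF.

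*Foxo1* was at 51.5, 54.6 and 58.9 CPM in control and at 76.7, 100 and 68.0 CPM in cKO total RNA. The genotypes did not overlap, cKO mouse 2 was the highest, and the log2FC was 0.57 ± 0.14. In RPF, *Foxo1* was at 169, 193 and 175 CPM in control and at 203, 221 and 237 CPM in cKO mice, with a log2FC of 0.30 ± 0.08. There cKO mouse 3 was the highest, and in that mouse alone the log2FC of *Foxo1* was 0.33 in total RNA and 0.41 in RPF.

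*Tcf7* was at 154, 143 and 213 CPM in control and at 227, 282 and 163 CPM in cKO total RNA. The mice of each genotype were spread widely and overlapped, so the log2FC of 0.40 ± 0.21 did not pass the threshold, and in cKO mouse 3 alone it was -0.037. In RPF, *Tcf7* was at 552, 625 and 600 CPM in control and at 548, 505 and 547 CPM in cKO mice. The groups did not overlap, by a narrow margin, and the log2FC of -0.15 ± 0.07 was not past the threshold either. *Lef1* was at 143, 127 and 139 CPM in control and at 115, 141 and 118 CPM in cKO total RNA, with overlap and a log2FC of -0.12 ± 0.09 that did not pass, though it did without cKO mouse 2 (-0.20). In RPF, *Lef1* was at 291, 313 and 331 CPM in control and at 246, 270 and 271 CPM in cKO mice, without overlap, and the log2FC was -0.25 ± 0.07. The log2FC of *Lef1* in cKO mouse 3 alone was -0.18 in total RNA and -0.20 in RPF. *Foxo1*, *Tcf7* and *Lef1* each overlap another gene on the same strand, and reads that fell in both were not counted for either.

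In all, 2 of the 9 genes (*S1pr1* and *Dapl1*) passed the threshold downwards and 4 (*Ccr7*, *Foxo1*, *Cd44* and *Cd69*) upwards in total RNA, where 28.0% of the 11519 genes tested were decreased and 26.3% increased. In RPF, 4 (*S1pr1*, *Klf2*, *Lef1* and *Dapl1*) passed downwards and 3 (*Foxo1*, *Cd44* and *Cd69*) upwards, where 15.7% of 11428 genes were decreased and 14.1% increased. The genotypes did not overlap for 5 of the 9 genes in total RNA and for 9 of 9 in RPF, beside 62.3% and 46.5% of all genes tested. The median log2FC of the 9 genes was 0.40 in total RNA and -0.15 in RPF, against -0.0037 and 0.0080 over all genes tested. In cKO mouse 3 alone against the controls, *Dapl1* downwards and *Ccr7*, *Foxo1*, *Cd44* and *Cd69* upwards passed in total RNA, and *Dapl1* downwards and *Cd44* and *Cd69* upwards in RPF. Because these genes were selected on the same contrasts, nothing is read from these counts.

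**Figure D2:**
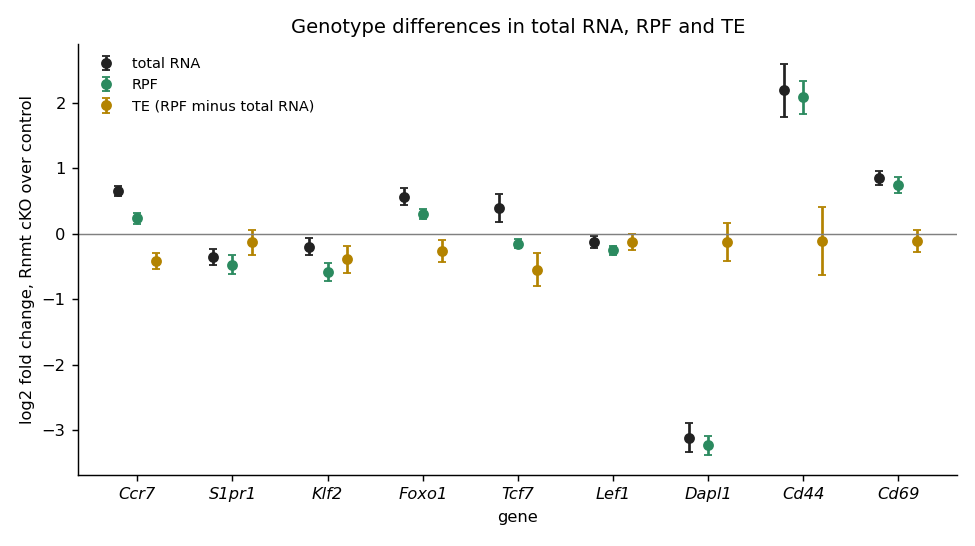
Log2FC of cKO over control (y axis) for each gene in total RNA, RPF and TE, points for the fitted value and bars for ± 1 SE from edgeR with 3 mice per genotype. *Dapl1* lies near -3 and *Cd44* near 2 in both total RNA and RPF with TE near 0, and *Ccr7* and *Tcf7* have the lowest TE values, -0.41 and -0.55.

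TE (translation efficiency) is the difference between the RPF and the total RNA log2FC and asks whether ribosome occupancy changed beyond the RNA. The TE log2FC was negative for all 9 genes, between -0.55 and -0.10. It turned positive for *Foxo1*, *Cd44* or *Dapl1* when particular cKO mice were left out. The median over the 9 genes was -0.13, against 0.035 over all genes tested. The share of all genes with a negative value was not counted. Because the 9 genes were chosen with TE known, nothing is read from their shared sign. Of the 9, 1 gene, *Ccr7*, passed the threshold, where 6.57% of 10668 genes were decreased and 3.24% increased. The ratio of RPF to total RNA CPM of *Ccr7* was 2.03, 2.10 and 2.15 in control mice and 1.54, 1.60 and 1.56 in cKO mice. The mice of each genotype were close to each other and did not overlap, and the TE log2FC of *Ccr7* was -0.41 ± 0.12. It was just inside the threshold, and outside it when any 1 mouse but cKO mouse 3 was left out, with values of -0.44 to -0.40 over all 6 such fits. The call was also lost without TMM, without the filter on low counts and with a block for the replicate number. It held with DESeq2 and with a block for the mouse. For *Tcf7* the ratio was 3.58, 4.38 and 2.81 in control and 2.41, 1.79 and 3.36 in cKO mice. These overlapped, and the TE log2FC of -0.55 ± 0.25 did not pass the threshold. It passed without cKO mouse 3 (-0.75), and was -0.31 without cKO mouse 2 and -0.071 in cKO mouse 3 alone. The same ratio of *Cd44* was 2.55, 2.49 and 2.62 in control and 2.89, 1.95 and 2.93 in cKO mice, with a TE log2FC of -0.10 ± 0.52, and that of *Dapl1* was 2.84, 3.32 and 2.71 against 3.79, 3.15 and 1.97, with -0.12 ± 0.29. These errors come from a fit that does not pair the libraries of a mouse, and with a block for the mouse the TE log2FC was -0.013 for *Cd44* and -0.037 for *Dapl1*, neither past the threshold.

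To compare the genes with each other, counts were divided by length and scaled to the same total in every library (TPM), by exon length for total RNA and by coding length for RPF. In control total RNA the order was *Ccr7* (1580 ± 88.0 TPM, SD, n = 3), *Cd69* (410 ± 69.2), *Tcf7* (232 ± 55.3), *Dapl1* (211 ± 15.5), *Lef1* (138 ± 9.61), *Klf2* (55.4 ± 10.7), *S1pr1* (41.8 ± 5.27), *Foxo1* (22.7 ± 1.82) and *Cd44* (16.5 ± 2.34). The libraries of neighbours overlapped for *Tcf7* and *Dapl1* and for *Klf2* and *S1pr1*, and did not for the other neighbours. In cKO total RNA, *Dapl1* was at 24.6 ± 9.18 TPM and *Cd44* at 78.4 ± 51.8 TPM. *Dapl1* thus moved from above 90.6% of the coding genes tested in both kinds of library to above 37.9% of them, and *Cd44* from above 28.7% to above 70.2%. *Ccr7* stood above 99.6% of genes in control and 99.8% in cKO total RNA.

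In control RPF the order per coding length was *Ccr7* (1903 ± 133 TPM), *Tcf7* (767 ± 53.2), *Dapl1* (365 ± 24.8), *Lef1* (287 ± 19.4), *Cd69* (233 ± 40.4), *Klf2* (173 ± 16.9), *Foxo1* (108 ± 8.16), *Cd44* (33.6 ± 4.90) and *S1pr1* (21.7 ± 2.55). Only *Lef1* and *Cd69* overlapped among neighbours in this order. *Cd69* stood above *Tcf7*, *Dapl1* and *Lef1* in total RNA and below all of them in RPF, while *S1pr1* stood above *Foxo1* and *Cd44* in total RNA and below both in RPF.

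**Figure D3:**
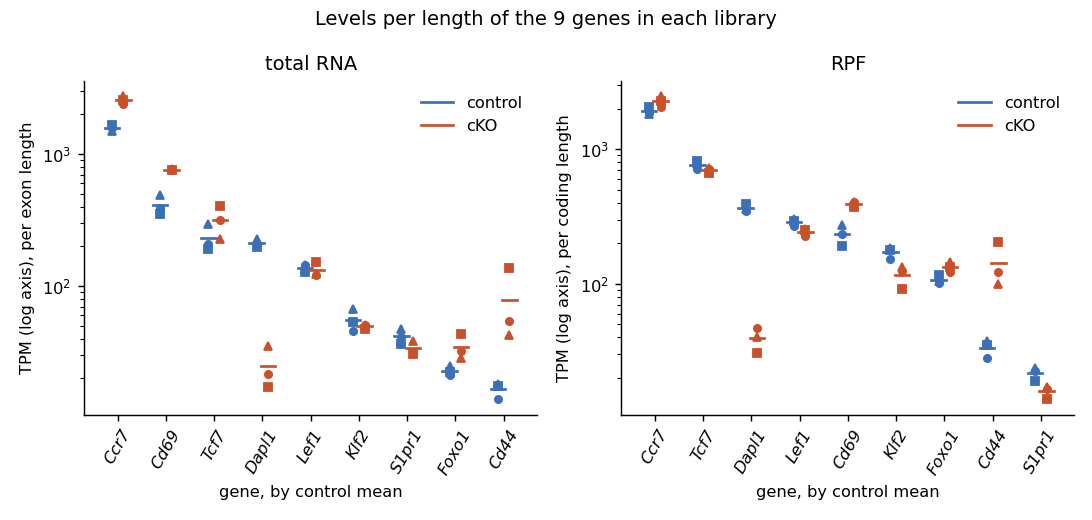
TPM (log axis) of the 9 genes in total RNA per exon length (left) and RPF per coding length (right), ordered by the control mean, 1 point per library, lines at the means, blue for control and orange for cKO. *Ccr7* is the highest in both panels, the cKO points of *Dapl1* lie far below the controls, and those of *Cd44* lie above all controls.

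The control libraries alone allow a test that does not involve genotype, of RPF against total RNA within the normalization of each library. *Klf2* had the most RPF relative to total RNA (log2 ratio 2.24 ± 0.13 SE, adjusted p = 1.78e-07 by edgeR's quasi-likelihood test, n = 3 and 3), followed by *Tcf7* (1.59 ± 0.14), *Foxo1* (1.49 ± 0.08), *Dapl1* (1.35 ± 0.08), *Cd44* (1.14 ± 0.13), *Lef1* (0.99 ± 0.07) and *Ccr7* (0.86 ± 0.08). The other two were lower in RPF, *S1pr1* at -0.95 ± 0.12 (adjusted p = 5.06e-05) and *Cd69* at -0.92 ± 0.14 (adjusted p = 0.000184). So the 4 transcription factors, and also *Dapl1*, *Cd44* and *Ccr7*, had more RPF than total RNA while the egress receptor *S1pr1* and its antagonist *Cd69* had less. All 9 passed the threshold, 7 above and 2 below, where 36.3% of 10668 genes were above and 38.2% below, and they did so without TMM as well, although that scaling moved the median of all genes from -0.02 to 0.19 and the split to 4812 genes above and 3198 below. RPFs cover the coding sequence only, whereas total RNA also covers UTRs, and coding sequence makes up 22.6% of the exon length of *Foxo1* and 57.5% of that of *Klf2*. Per length, the log2 ratio was 2.25 for *Foxo1*, 1.75 for *Tcf7*, 1.66 for *Klf2*, 1.05 for *Lef1* and 1.02 for *Cd44*. It was 0.79 for *Dapl1*, 0.27 for *Ccr7*, -0.82 for *Cd69* and -0.95 for *S1pr1*, with a median of -0.29 over 9985 coding genes. Per length, *Foxo1* stood above 98.1%, *Tcf7* above 96.1% and *Klf2* above 95.4% of these genes, and *S1pr1* above 25.0%.

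Other genes of the same pathways were taken from 8 lists drawn up by function, with earlier results of these data known and none of the 9 genes in them. Their counts are to be read against all genes tested, of which 28.0% fell and 26.3% rose in total RNA and 15.7% fell and 14.1% rose in RPF. For counts with cKO mouse 3 alone the shares of all genes in the same fit were 20.8% and 19.7% in total RNA and 4.75% and 4.36% in RPF. Of 24 genes of the naive, quiescent state, 11 fell and 4 rose in total RNA and 12 fell and 3 rose in RPF, with a median log2FC of -0.20 and -0.29. *Cd27*, a costimulatory receptor of the TNF receptor family, fell from 147, 129 and 145 CPM in control to 64.4, 56.1 and 69.2 CPM in cKO total RNA (log2FC -1.15 ± 0.09, adjusted p = 4.23e-05). *Vsir*, which encodes the inhibitory receptor VISTA, fell (-0.94 ± 0.19, adjusted p = 0.00338), and so did *Id3*, an inhibitor of E proteins (-0.92 ± 0.18, adjusted p = 0.00374). With cKO mouse 3 alone 10 of the 24 fell and 4 rose in total RNA, and 5 fell and 1 rose in RPF, where 4.75% and 4.36% of all genes did.

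Of 24 activation genes, 14 rose and 2 fell in total RNA, with a median log2FC of 0.66, and in RPF 14 rose and 4 fell, against 26.3% and 14.1% of all genes that rose. *Gzmb*, which encodes the cytotoxic protease granzyme B, was at 18.7, 17.3 and 29.9 CPM in control and at 108, 102 and 90.4 CPM in cKO total RNA (log2FC 2.18 ± 0.19, adjusted p = 7.21e-05). *Nr4a3*, an immediate early nuclear receptor induced by antigen receptor signalling, rose (1.71 ± 0.25, adjusted p = 0.000788). *Cd83*, a surface protein that B cells and dendritic cells also express, was at 7.43, 8.68 and 24.0 CPM in control and at 72.8, 128 and 39.1 CPM in cKO total RNA (2.58 ± 0.54, adjusted p = 0.00441). With 1 mouse left out its log2FC was 2.07 to 3.31. *Cd83* was highest in cKO mice 2 and 1, the mice with the most B cell marker reads, and the part of B cells in its rise was not tested. With cKO mouse 3 alone 14 of the 24 rose and 2 fell in total RNA, and 9 rose and 2 fell in RPF, where 19.7% and 4.36% of all genes rose in the respective fits. The 2 that fell in total RNA, named for that reason after their values were seen, were *Pdcd1*, which encodes PD-1 (-1.34 ± 0.15, adjusted p = 0.000213), and *Cd40lg*, the CD40 ligand (-0.85 ± 0.11, adjusted p = 0.000524).

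**Figure D4:**
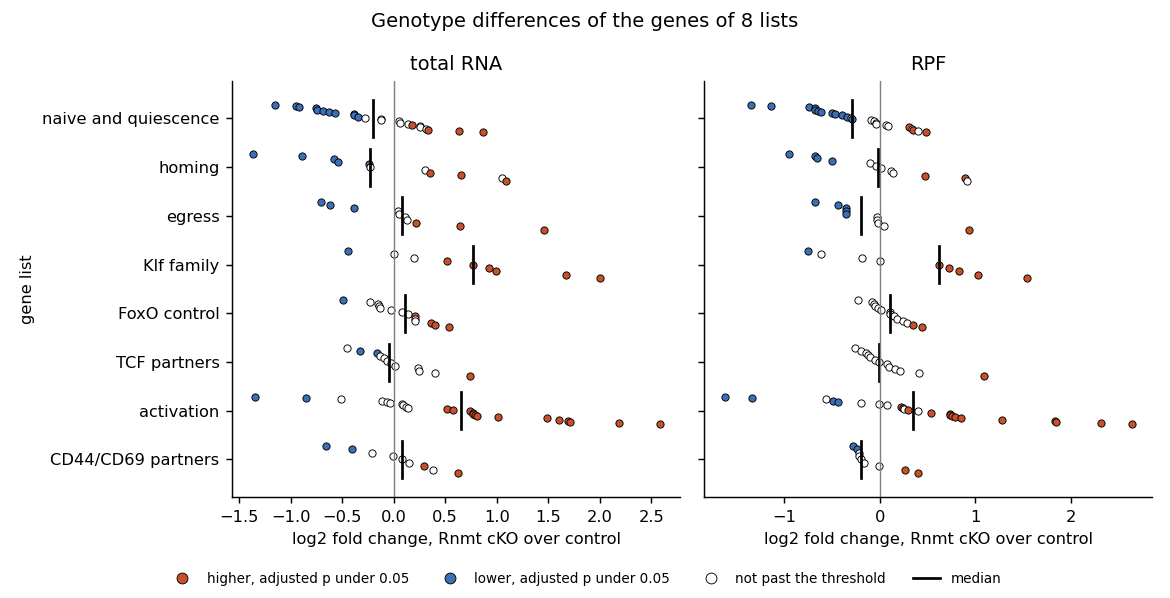
Log2FC of cKO over control (x axis) of the genes tested in each of 8 lists (y axis) in total RNA (left) and RPF (right), 1 point per gene, filled orange or blue where it passed the threshold upwards or downwards, with a line at the list's median. The activation and Klf family lists have medians of 0.66 and 0.77 in total RNA, and the naive and quiescence list a median of -0.20.

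Of the homing receptors other than *Ccr7*, 5 of 11 fell and 3 rose in total RNA (median -0.23), and 4 of 12 fell and 2 rose in RPF (median -0.013), so the share that rose was near that of all genes. With cKO mouse 3 alone 5 fell and 3 rose in total RNA, and 3 fell and none rose in RPF, beside 4.75% and 4.36% of all genes in RPF. The integrin chains gave the largest differences among those named, with *Itgb7*, the beta chain of the gut-homing integrin, down from 160 to 165 CPM in control to 52.8 to 74.6 CPM in cKO total RNA (log2FC -1.37 ± 0.11, adjusted p = 5.41e-05) and *Itgb1* up (1.09 ± 0.09, adjusted p = 4.96e-05). *Ccr4* was at 19.4, 18.6 and 15.6 CPM in control and at 27.0, 71.1 and 13.3 CPM in cKO total RNA and did not pass (1.05 ± 0.52, adjusted p = 0.118). Like *Cd44*, it was highest in cKO mouse 2, and unlike *Cd44* it was below the controls in cKO mouse 3.

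Of 10 genes of the egress pathway around *S1pr1*, 3 fell and 3 rose in total RNA (median 0.08), and 5 fell and 1 rose in RPF (median -0.19). The total RNA shares are near those of all genes, and the 5 became 3 to 4 with 1 mouse left out. For cKO mouse 3 alone 2 fell and 4 rose in total RNA, and 2 fell and 1 rose in RPF. *Rgs1*, a regulator that dampens chemokine and S1P receptor signalling, was at 276, 296 and 363 CPM in control and at 840, 729 and 994 CPM in cKO total RNA (log2FC 1.46 ± 0.14, adjusted p = 0.000101). *Coro1a*, an actin regulator needed for lymph node egress, fell (-0.71 ± 0.07, adjusted p = 0.000167). *Gna13*, a G protein alpha subunit, rose in total RNA (0.64 ± 0.06, adjusted p = 6.47e-05) and had a log2FC of -0.02 ± 0.07 in RPF (adjusted p = 0.880).

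Of 9 other members of the Klf family, 6 rose and 1 fell in total RNA (median 0.77), and 5 rose and 1 fell in RPF (median 0.62). Of the 6, *Klf4* passed the filter on low counts only through the cKO libraries, at 2.58 to 3.46 CPM against 0.637 to 0.794 CPM in control. Nothing is read from its call in total RNA. *Klf10* rose most among those named (1.68 ± 0.10, adjusted p = 1.76e-05), followed by *Klf6* (0.99 ± 0.09, adjusted p = 9.69e-05) and *Klf16* (0.92 ± 0.14, adjusted p = 0.000866). The 5 that rose in RPF became 2 to 5 with 1 mouse left out, where 14.1% of all genes rose. For cKO mouse 3 alone, where *Klf4* was under the filter in total RNA, fewer of the family rose in both kinds of library, as did fewer of all genes.

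Of 14 genes of the PI3K, Akt and related control of FoxO proteins, 1 fell and 4 rose in total RNA (median 0.11), and 2 rose in RPF, shares that for the genes that rose are near those of all genes. For cKO mouse 3 alone 2 fell and 3 rose in total RNA, and 2 rose in RPF. In total RNA the catalytic subunits of PI3K went in opposite directions, *Pik3cd* up (0.54 ± 0.05, adjusted p = 0.000133) and *Pik3ca* down (-0.49 ± 0.05, adjusted p = 0.000146), and the kinase gene *Stk4* rose (0.41 ± 0.07, adjusted p = 0.00135). In RPF *Pik3cd* rose (0.34 ± 0.06), while *Pik3ca* (-0.22 ± 0.08) and *Stk4* (0.15 ± 0.06) did not pass. Of 12 partners of TCF1 and LEF1, 2 fell and 1 rose in total RNA (median -0.04), and of 13 in RPF 1 rose. For cKO mouse 3 alone 2 fell and none rose in total RNA, and none passed in RPF. These are smaller shares than those of all genes. *Aes*, a Groucho-related corepressor, fell in total RNA (-0.33 ± 0.06, adjusted p = 0.00174) and did not pass in RPF (-0.12 ± 0.07). The coactivator gene *Bcl9l* gave 0.74 ± 0.27 in total RNA (adjusted p = 0.0489) with overlapping genotypes, and passed in 1 of 6 fits that left out 1 mouse. *Bcl9* gave 0.40 ± 0.34 in total RNA (adjusted p = 0.345), and neither passed in RPF. Of 9 partners and processing enzymes of CD44 and CD69, 2 fell and 2 rose in total RNA (median 0.08) and in RPF (median -0.20), not far from the shares of all genes. With cKO mouse 3 alone 3 fell and 1 rose in total RNA, and none passed in RPF. In total RNA *Ezr*, which encodes ezrin, a linker of CD44 to actin, rose (0.62 ± 0.07, adjusted p = 0.000230), while the myosin light chain gene *Myl12b* (-0.65 ± 0.09, adjusted p = 0.000688) and the sheddase gene *Adam17* (-0.40 ± 0.06, adjusted p = 0.000853) fell. In RPF none of these passed, with *Ezr* at -0.22 ± 0.08, *Myl12b* at -0.21 ± 0.09 and *Adam17* at -0.20 ± 0.09.

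Other cell types that the samples could hold were also measured. Of 3 tested regulatory T cell markers in total RNA, *Ikzf2* rose (1.12 ± 0.11, adjusted p = 0.000131) and so did *Lrrc32* (1.04 ± 0.36, adjusted p = 0.0396, past the threshold in 1 of 6 fits that left out 1 mouse), while *Foxp3*, the factor that defines these cells, was at 0.361 to 0.902 CPM and under the filter. The other tested marker, *Gpr83*, gave -0.15 ± 0.10 and did not pass. Over all genes tested, 26.3% rose in total RNA and 14.1% in RPF. With so few markers, nothing is read from the number that rose in either kind of library. In RPF, *Foxp3* was at 4.33 to 6.63 CPM and gave -0.19 ± 0.23 (adjusted p = 0.562), and 1 of the 4 markers, *Ikzf2*, rose (adjusted p = 0.0499), in 1 of 6 fits that left out 1 mouse. With cKO mouse 3 alone 1 marker rose in total RNA and none in RPF. The summed level of the 4 markers was 24.9 to 29.2 CPM in control and 36.0 to 40.8 CPM in cKO total RNA. The most abundant was *Gpr83* in control total RNA, at 12.8 to 15.7 CPM, and *Ikzf2* in cKO total RNA, at 21.4 to 22.7 CPM. The 5 NK cell markers summed to 0.323 to 0.582 CPM in control and 1.56 to 2.10 CPM in cKO total RNA. In RPF they summed to 0.0939 to 0.613 CPM and 1.97 to 2.93 CPM, and neither kind overlapped. None of the 5 passed the filter on low counts in either kind. Over all genes tested, 62.3% did not overlap in total RNA and 46.5% in RPF, so nothing is read from these low sums. NK cells also express *Gzmb* and are meant to be depleted by kits of the kind used here, and their part in its rise was not tested. The 9 myeloid markers summed to 1.13 to 1.54 CPM in control and 1.38 to 3.06 CPM in cKO total RNA, mostly *Cd68*, with *Csf1r* and *Cd14* under 0.05 CPM in the mean. In RPF, 2 of the 9 were tested. *Fcer1g* was at 1.23 to 2.44 CPM in cKO and 0 to 0.151 CPM in control mice. It passed the filter on low counts only through the cKO libraries. With fewer cKO libraries it fell under the filter, so nothing is read from its call. The 2 CD8 markers summed to 21.4 to 41.7 CPM in control and 9.85 to 26.4 CPM in cKO total RNA. The part of these cells in the differences of the 9 genes was not tested.

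The genes whose pattern was most like that of each member were sought by Pearson's r of log2 CPM over the 12 libraries, centred within total RNA and within RPF, among 6609 genes, as a description. The libraries of a genotype share its differences, so any gene that differs between genotypes resembles another. *Dapl1* was most like *Acot9* (r = 0.995), *Lck* (0.995) and *Scml4* (0.994), which were lower in cKO total RNA with log2FCs of -0.85, -0.90 and -1.68. *Cd44* was most like *Il2ra* (0.991), *Cdk6* (0.991) and *Ppp1r15b* (0.990). *Il2ra* encodes the alpha chain of the IL-2 receptor and had a log2FC of 0.81 in total RNA. *Cd69* was most like *Tab2* (0.985), *Ppil4* (0.981) and *Gzmb* (0.979), and *Ccr7* was most like *Igf2r* (0.978), *Rtfdc1* (0.977) and *Cfap43* (0.969). *S1pr1* was most like *Arhgef3*, *Cast* and *Gimap6* (0.955 to 0.958), *Foxo1* like *Zfp384*, *Edc4* and *Nfat5* (0.964 to 0.977), and *Tcf7* like *Lnpep*, *Itgal* and *Pds5b* (0.952 to 0.965). *Klf2* (*Rapgef2*, *Gbp9* and *Zc3hav1*, 0.894 to 0.905) and *Lef1* (*Klf3*, *Syne1* and *Tpp1*, 0.883 to 0.887) had the least close neighbours. Among the members themselves r was highest for *Foxo1* and *Cd44* (0.900) and lowest for *Dapl1* and *Cd44* (-0.955), and that of *Tcf7* with the other 8 lay between -0.28 and 0.66.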

How the data were processed

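Total cytoplasmic RNA and RPF libraries of 3 control and 3 *Rnmt* cKO mice were analysed. The authors removed adapters (Cutadapt) and rRNA and tRNA reads (Bowtie), aligned the reads to mm10 with STAR 2.5.2b and deposited unnormalized counts per gene. The strand column used was the one that gave the deposited table's signal values (the authors' counts divided by a factor per library) for 100% of its genes in each library, within a relative tolerance of 1e-06. The table's fold changes and p-values, the authors' own results, were not used. The 4 summary lines of each file, for reads that were unmapped, multimapping, outside genes or ambiguous, were left out of library sizes, and amounted to 7.48 to 10.7%, 24.3 to 30.1%, 5.34 to 8.21% and 1.17 to 1.32% of reads in total RNA and to 26.5 to 33.6%, 22.9 to 31.0%, 2.08 to 6.19% and 1.27 to 1.47% in RPF. Mitochondrial rRNA held 18.7 to 23.6% of gene counts in total RNA and 2.30 to 4.51% in RPF. Genes were named with GENCODE vM21 (49326 of 49585 IDs found), whereas the authors counted on vM12.

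Genes were kept where 3 or more of the 6 libraries of a kind exceeded 1 CPM (in both kinds for TE), and were fitted with TMM and the quasi-likelihood test of edgeR 4.0.16 in R 4.3.3, with Benjamini-Hochberg adjustment over all genes and a threshold of 0.05. TE was the interaction of genotype and kind over all 12 libraries. The code was tested on simulated data. TPM used coding genes only. Same-numbered total RNA and RPF libraries of a genotype deviated together (r = 0.11 to 0.38 in all 6, each the highest for its library), so an alternative blocked TE by mouse. Alternatives also used library size without TMM, DESeq2 1.42.0, edgeR's exact test, other filters, both strands, coding genes only, a replicate block and each replicate left out. Mice 1 and 2 of the cKO were left out together after the B cell values were seen. Members and lists were chosen with earlier results of these data known, and some listed genes are not reported here. Named genes were the 9 members, *Rnmt*, in each of 8 lists the 3 largest total RNA log2FCs among genes averaging 2 or more in log2 CPM, and for each member the 3 most like genes among those averaging 4 or more in both kinds; other genes were chosen after their values were seen. Log2 CPM used a prior count of 2. Standard errors cover counting and the spread between mice, and PCR duplicates were not separated. Python 3.11.15, pandas 2.3.3, numpy 2.4.6 and matplotlib 3.10.9 made the tables and figures.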

Additional observations from a re-analysis of the deposited data

Results flagged for a closer look

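The genotype effect was not the same in the 2 kinds of library for 5 of the 9 members and 24 list genes named by rule. Over all 10668 genes tested, 6.57% were decreased and 3.24% increased in TE. The test was edgeR with an interaction term over 12 libraries, which also called the targeted gene *Rnmt* (-1.62 ± 0.11). The list genes were named for large total RNA log2FCs, which enter TE with the opposite sign, and the members were chosen with TE known. Thus nothing is read from the count of 5 or its direction. The TE log2FC was -0.41 ± 0.12 for *Ccr7*, which was chosen with this contrast known, -0.61 ± 0.13 for *Itgb1* (adjusted p = 0.0116), -0.66 ± 0.09 for *Gna13* (adjusted p = 0.000327), -0.84 ± 0.21 for *Klf10* (adjusted p = 0.0236) and -0.84 ± 0.12 for *Ezr* (adjusted p = 0.000514). *Gna13* and *Ezr* passed the threshold in all 6 fits that left out 1 mouse, *Itgb1* in 4, *Klf10* in 2 and *Ccr7* in 1. In each of these 5 genes total RNA was higher in cKO mice and the RPF difference was smaller or, for *Gna13* and *Ezr*, below 0 and not past the threshold. *Cd40lg*, named after its values were seen, had a TE log2FC of -0.78 ± 0.18 (adjusted p = 0.0170) and passed in 3 of the 6 fits, with both RNA and RPF lower in cKO mice.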

How the results depend on the processing

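The calls of *Cd44*, *Cd69* and *Dapl1* in total RNA and RPF held in every alternative. All 9 calls of RPF against total RNA in control mice held without TMM, with the replicate block and with each control replicate left out. No other alternative was run for them. The log2FCs kept their direction and side of the threshold in 124 of 135 values in total RNA, 112 of 135 in RPF and 121 of 135 in TE. Members decreased numbered 2 in total RNA, 1 without TMM, 1 in cKO mouse 3 alone (a lone library, assumed to vary like the others) and 1 to 2 when each replicate was left out. In RPF they numbered 4, 1 in cKO mouse 3 alone and 2 to 3 over replicates left out. *S1pr1* was lost in most of these, in RPF also without TMM and with DESeq2. In TE, 1 member was decreased in the reported fit, 0 without TMM, without the filter, in cKO mouse 3 alone and, where *Ccr7* gave -0.42, with the replicate block, and 0 to 2 over replicates left out. *Foxo1* and *Lef1* in RPF were lost in 4 of 6 fits that left out a replicate. *Ccr7* in RPF passed without TMM, with DESeq2 and for coding genes only. *Tcf7* in total RNA passed without control replicate 3 or cKO replicate 3 and without the filter, and *Lef1* in total RNA passed downwards without cKO replicate 2 (-0.20). Directions turned for uncalled values of *Dapl1* in TE without cKO replicate 3 (0.25, against -0.40 to 0.25 over replicates left out), *Cd44* in TE without cKO replicate 2 (0.20, against -0.20 to 0.20), and in cKO mouse 3 alone for *Tcf7* in total RNA (-0.037) and for *Foxo1* (0.083) and *Cd44* (0.18) in TE. The cause was not tested.

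Same-numbered control and cKO libraries did not pair (r = -0.23, -0.17 and -0.48 in total RNA and 0.28, -0.12 and 0.12 in RPF). The replicate block changed no other call of the 9 genes, and the block for the mouse in TE changed none. Over all genes, TE calls numbered 701 lower and 346 higher, 777 and 426 with the block for the mouse, 826 and 404 with DESeq2, 456 and 190 with the replicate block, 525 and 214 without the filter, 661 and 259 without TMM, 415 to 812 and 122 to 367 with each replicate left out, and 294 and 81 in cKO mouse 3 alone, where RPF gave 520 lower and 477 higher against 1796 and 1612. The activation genes increased in total RNA numbered 14 in every alternative, and the naive genes decreased 9 to 12. In RPF the 12 naive genes decreased became 8 to 12 with each replicate left out and 5 in cKO mouse 3 alone. Of 770 counts over the lists, 656 stayed within 1.5 times the reported count. Depth limits *S1pr1* and *Dapl1* most, with as few as 67 and 44 reads in an RPF library.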
